A study of Mus musculus with 12 samples.

Results

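Genes of the hypoxia response and of glycolysis were examined in the islets of RIP1-Tag2 mice, in which the islets that have undergone the tumor angiogenic switch can be separated from those that have not. The set was drawn up by name from known roles, with earlier results of these data known. It holds the subunits of the hypoxia-inducible factors (HIF), the enzymes that mark or degrade them, a group of their common target genes, transporters of glucose and lactate, Pdk1 and the enzymes of glycolysis. Of 39 genes listed, 36 were measured by a transcript cluster (the group of probes that reads out a transcript) annotated with that gene symbol alone, among 19938 genes measured in this way. The 36 genes comprised 3 of 3 HIF subunits, 4 of 4 HIF regulators, 8 of 8 HIF targets, 5 of 5 in the group of transporters and Pdk1, and 16 of 19 glycolytic enzymes. Gapdh was named only by 25 clusters that carry several symbols, and Gpi1 and Eno1 were not analysed here.

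RIP1-Tag2 mice carry the T antigen of SV40 under the rat insulin promoter, so that the beta cells express the oncogene. All mice were 8 weeks old, of the Rip1Tag2 strain on a C57BL/6 background. The groups were 6 pools of angiogenic islets and 6 pools of non angiogenic islets. Islets were freed from the pancreas with collagenase, purified on a density gradient and sorted by their appearance, and total RNA of each pool was hybridised to its own Affymetrix mouse gene array. How many mice or islets made up a pool, and whether different mice gave different pools, is not in the labels, so that p-values reflect the spread among these pools, which may be technical. The transgene acts in beta cells, whereas a pool also holds the vessels and stroma of the islets. Levels in bulk RNA therefore do not separate a change in cell numbers from a change in RNA per cell.

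Cells short of oxygen stabilise the alpha subunits of HIF, which are otherwise hydroxylated by the Egln prolyl hydroxylases, bound by the von Hippel-Lindau protein and degraded. The stabilised alpha subunit pairs with Arnt, binds short DNA elements with the core ACGTG or GCGTG, and induces genes of glucose uptake, glycolysis, lactate export, pH control and mitophagy. Much of this control acts on the HIF protein, which arrays do not measure. Beta cells are known for low levels of lactate dehydrogenase A and of the lactate transporter Slc16a1, and they take up glucose through Slc2a2. In tumors a rise of glycolytic genes can come from hypoxia or from oncogenes, and many cell types of a tumor carry the same enzymes.

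The arrays carried the known islet transcripts. On every array Ins2 lay between 13.14 and 13.29, Iapp between 13.51 and 13.64, Pdx1 between 10.47 and 10.90 and Gcg between 13.07 and 13.60 (log2 level). Array medians lay between 7.30 and 7.38. Principal component 1 (41.5% of the variance) separated replicates 1 to 3 from replicates 4 to 6 in both groups, a division that the labels do not explain. The study describes 2 independent profiling experiments, and the labels do not tie arrays to them. Whether each set was a separate experiment is not known, and the arrays of a group within a set may be technical repeats. In that case p-values, also those within a set or with the set in the model, would reflect technical spread. By limma, 7349 genes (36.9%) had different levels in these array sets (adjusted p under 0.05). Each result was therefore also computed with the set as a term in the model and within each set. Markers of stroma, several of which the study reports as up-regulated in these same arrays, moved with the groups. In angiogenic islets 13 of 15 endothelial, 9 of 10 pericyte and smooth muscle, 9 of 10 fibroblast and 6 of 10 macrophage markers were higher and none was lower, while of 9 beta cell markers 0 were higher and 1 was lower. Over all genes 3.55% were higher and 0.948% lower. Acinar markers, which reveal exocrine tissue carried along with the islets, differed widely between arrays, with mean log2 levels of 7.81 to 11.08 in angiogenic and 7.64 to 12.12 in non angiogenic islets.

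The promoters of 3 genes are shown because their genes carry differences described next. Bnip3 was the call among the HIF targets and Hk2 that among the glycolytic enzymes. Ldha did not pass over all arrays (adjusted p = 0.15 from limma) but did with the array set as a term (0.000195). The sequences are the 250 bases before the RefSeq start of each gene (GRCm38.p6), written 5′ to 3′ on the strand of the gene, with the HIF core in either orientation (ACGTG or GCGTG, read as CACGT or CACGC on the other strand, overlapping matches merged) in capitals. Bnip3 lies at chr7:138909507-138909756 on the minus strand and has 4 such matches, beginning 117, 108, 99 and 35 bases before the start. Hk2 lies at chr6:82774455-82774704 on the minus strand and has 2, beginning at 226 and 52 bases. Ldha lies at chr7:46845554-46845803 on the plus strand and has 3, beginning at 145, 48 and 34 bases.
Bnip3: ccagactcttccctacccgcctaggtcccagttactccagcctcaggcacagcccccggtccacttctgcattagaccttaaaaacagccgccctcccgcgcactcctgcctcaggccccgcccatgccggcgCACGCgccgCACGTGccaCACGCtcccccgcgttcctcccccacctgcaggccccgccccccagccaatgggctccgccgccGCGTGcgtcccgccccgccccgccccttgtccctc
Hk2: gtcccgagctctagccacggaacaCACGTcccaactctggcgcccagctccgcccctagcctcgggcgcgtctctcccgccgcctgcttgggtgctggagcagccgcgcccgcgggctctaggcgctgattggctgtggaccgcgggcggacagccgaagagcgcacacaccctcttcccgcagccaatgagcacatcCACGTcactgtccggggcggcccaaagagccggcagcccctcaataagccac
Ldha: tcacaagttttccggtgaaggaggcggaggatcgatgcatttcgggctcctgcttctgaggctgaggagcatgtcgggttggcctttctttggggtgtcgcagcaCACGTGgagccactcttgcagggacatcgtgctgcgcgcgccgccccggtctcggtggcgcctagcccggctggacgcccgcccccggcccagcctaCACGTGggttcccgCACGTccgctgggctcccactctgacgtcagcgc

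Of the 36 measured genes, 32 had a promoter window in the table, and 29 of these (90.6%) held at least 1 core, against 7788 of 15614 genes of the array with a window (49.9%). All 6 HIF targets with a window and 14 of 16 glycolytic enzymes held one. A gene was counted if any of its windows held a core, and some genes have several windows. Counted by window, 40 of 51 windows of the 39 listed genes (78.4%) held a core, against 12679 of all 32851 windows (38.6%). The HIF targets were listed for their known control by HIF, so that their matches are no separate test of it. A match is a description of these letters and does not show that a factor binds.

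Few of the genes differed between angiogenic and non angiogenic islets, and those that did moved in both directions. By limma (adjusted p under 0.05), angiogenic islets had higher levels of 2 of 36 genes, Epas1 and Hk2, and a lower level of 1, Bnip3. The same call was made for 3.55% (higher) and 0.948% (lower) of all genes. The remaining 33 did not pass, 17 differences were positive and 19 negative, and the median log2 difference was -0.017 against -0.021 over all genes. Without adjustment, 4 genes were higher and 7 lower at p under 0.05, against 7.76% (higher) and 6.59% (lower) of all genes. When array set was included as a term, Ldha joined the higher genes, giving 3 higher and 1 lower (5.88% and 2.74% of all genes). The differences were small, between -0.36 and 0.35 on the log2 scale.

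**Figure D1:**
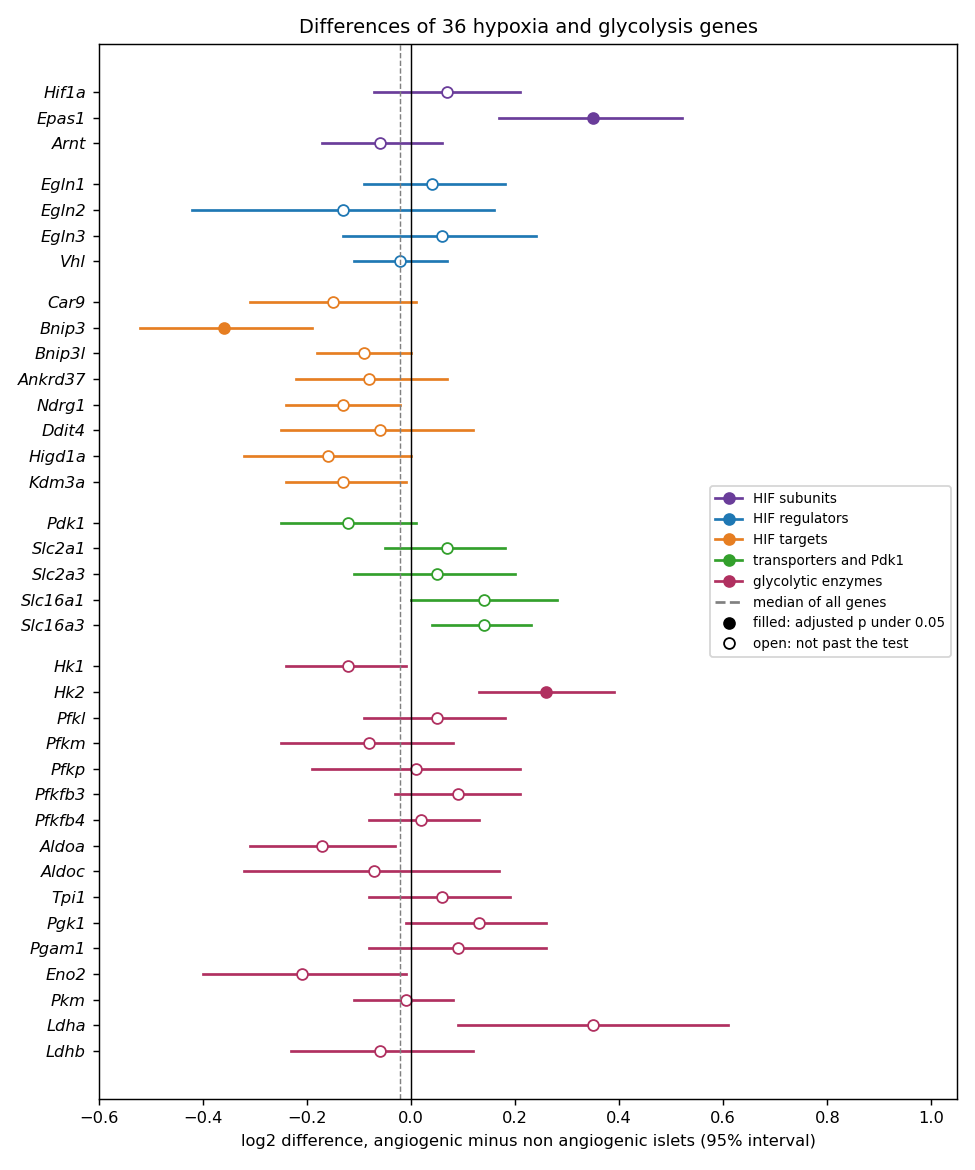
Log2 difference (angiogenic minus non angiogenic islets, horizontal axis) of the 36 measured genes, grouped by role, with 95% confidence intervals as lines; filled points passed the limma test (adjusted p under 0.05) and the dashed line marks the median of all genes. All 8 HIF targets lie below 0, as do 59.9% of all genes, while the glycolytic enzymes lie on both sides of it between -0.21 and 0.35.

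Among the HIF subunits, Epas1 passed the test, and Hif1a and Arnt did not (1 higher and 0 lower of 3, against 3.55% and 0.948% of all genes). Epas1 encodes HIF-2alpha, which is prominent in endothelial cells. Its log2 level ranged from 9.93 to 10.25 in angiogenic islets (median 10.06), against 9.51 to 9.97 in non angiogenic islets (median 9.73). The ranges overlapped at their ends, the highest non angiogenic array lying just above the lowest angiogenic array. The mean was 10.07 ± 0.12 in angiogenic and 9.73 ± 0.19 in non angiogenic islets (SD, n = 6 each), 1.27-fold higher in angiogenic islets, with a log2 difference of 0.35 (SE 0.08) and adjusted p = 0.026 from limma. When array set was included as a term, the adjusted p was 0.00358, and within each set all angiogenic arrays lay above all non angiogenic arrays. The difference was 0.23 in replicates 1 to 3 (adjusted p = 0.247 from limma) and 0.47 in replicates 4 to 6 (adjusted p = 0.0128). The call was lost in 5 of 12 leave-one-out fits, those without angiogenic replicate 2, 4 or 6 or non angiogenic replicate 5 or 6, with an adjusted p of up to 0.0647. It was also lost after quantile normalization (adjusted p = 0.0566 from limma) and without limma's moderation of the variances (adjusted p = 0.07). The mean level of 15 endothelial markers moved in the same direction, 9.57 to 9.72 in angiogenic against 9.07 to 9.26 in non angiogenic islets, and its part in the difference of Epas1 was not tested.

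Hif1a, the gene of the broadly expressed subunit HIF-1alpha, had log2 levels of 10.71 to 10.84 in angiogenic islets (median 10.80), against 10.54 to 10.94 in non angiogenic islets (median 10.71). The angiogenic range lay inside the non angiogenic one. The difference was 0.07 with a 95% interval of -0.07 to 0.21 (adjusted p = 0.722 from limma), and it was 0.19 and -0.05 in the 2 sets of arrays. Arnt, the common partner of the alpha subunits, had a difference of -0.06 (-0.17 to 0.06).

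None of the 4 regulators that destine HIF for degradation passed the test (3.55% of all genes were higher and 0.948% lower). The prolyl hydroxylase genes Egln1, Egln2 and Egln3 had log2 differences of 0.04 (-0.09 to 0.18), -0.13 (-0.42 to 0.16) and 0.06 (-0.13 to 0.24), and Vhl, the gene of the von Hippel-Lindau protein, one of -0.02 (-0.11 to 0.07). The interval was widest for Egln2, whose level depended mainly on the set of arrays. Egln2 was lower in replicates 4 to 6 than in replicates 1 to 3 by a log2 difference of -0.48 (adjusted p = 7.97e-06 from limma). The interval of Vhl was the narrowest of the 4 genes. Egln1 and Egln3 are themselves known targets of HIF.

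All 8 genes listed as HIF targets had lower mean levels in angiogenic islets, as did 59.9% of all genes. Only Bnip3 passed the test, as lower (0.948% of all genes). Of the 8, Car9 and Higd1a gave weak signals, with only 22.6% and 25.1% of all genes dimmer. Known targets listed under other roles had differences of either sign. Positive ones were 0.35 for Ldha, 0.26 for Hk2, 0.14 for Slc16a3, 0.13 for Pgk1, 0.07 for Slc2a1, 0.06 for Egln3 and 0.04 for Egln1. Negative ones were -0.12 for Pdk1 and -0.17 for Aldoa. Of these genes only Hk2 passed the test over all arrays. The run of negative signs thus holds for the genes listed as targets and not for the known targets under other roles. Bnip3 encodes a receptor of the outer mitochondrial membrane that directs mitochondria to autophagy. Its log2 level ranged from 9.13 to 9.49 in angiogenic islets (median 9.38), against 9.55 to 9.99 in non angiogenic islets (median 9.69). The groups did not overlap, as was the case for 2 of the 36 genes, the other being Hk2, and for 3.78% of all genes. The mean was 9.35 ± 0.12 in angiogenic and 9.71 ± 0.16 in non angiogenic islets (SD, n = 6 each), 1.28-fold lower in angiogenic islets, with a log2 difference of -0.36 (SE 0.08) and adjusted p = 0.0131 from limma. The difference was -0.40 in replicates 1 to 3 (adjusted p = 0.0346) and -0.31 in replicates 4 to 6 (adjusted p = 0.0649), and the call was kept in all 12 leave-one-out fits.

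The call of Bnip3 depended on the cluster read. A second, dimmer cluster of Bnip3, annotated with the same transcripts, ranged from 8.61 to 9.06 in angiogenic and from 8.93 to 9.24 in non angiogenic islets, and the groups overlapped. Its difference was -0.17 ± 0.08 (SE), and adjusted p was 0.345 from limma. With the mean of both clusters the difference was -0.27 (adjusted p = 0.061). Both clusters were lower in angiogenic islets, and the files do not say which copies of the Bnip3 sequence each set of probes matches.

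The other HIF targets had smaller differences. Car9, the gene of the carbonic anhydrase widely used as a tissue marker of hypoxia, had log2 levels of 5.84 to 6.06 in angiogenic islets (median 5.96), against 5.88 to 6.29 in non angiogenic islets (median 6.12). The groups overlapped, with a difference of -0.15 and a 95% interval of -0.31 to 0.01 (adjusted p = 0.399 from limma). At this weak signal the array can say little about the level of Car9. Bnip3l, the related mitophagy receptor, differed by -0.09 (adjusted p = 0.31), and all its angiogenic arrays lay below all non angiogenic arrays within each set. In replicates 1 to 3 that gap was below the rounding, angiogenic replicate 1 and non angiogenic replicate 2 both reading 12.03. A second cluster of Bnip3l overlapped, with 11.33 to 11.51 in angiogenic against 11.37 to 11.59 in non angiogenic islets. Its difference was -0.08 (adjusted p = 0.568 from limma). Ndrg1, a gene induced by stress and differentiation, and Kdm3a, which encodes a histone demethylase, both differed by -0.13 (adjusted p = 0.255 and 0.262). Higd1a, which encodes a small mitochondrial protein, differed by -0.16 (adjusted p = 0.366), Ankrd37 by -0.08 and Ddit4, which encodes an inhibitor of mTOR signaling, by -0.06.

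The 8 listed targets had negative differences in each set of arrays, after quantile normalization, after centring each array on its median and in each of 12 leave-one-out fits, with a median log2 difference of -0.128. Negative differences were also the more frequent ones over all genes, 59.9% in all arrays and 36.9% in both sets. Without adjustment, 4 of the 8 targets were lower and 0 higher at p under 0.05 (6.59% and 7.76% of all genes). The 8 genes were measured in the same RNA, so that their signs are not independent of each other, and of 28 further hypoxia genes 12 had positive and 16 negative differences.

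**Figure D2:**
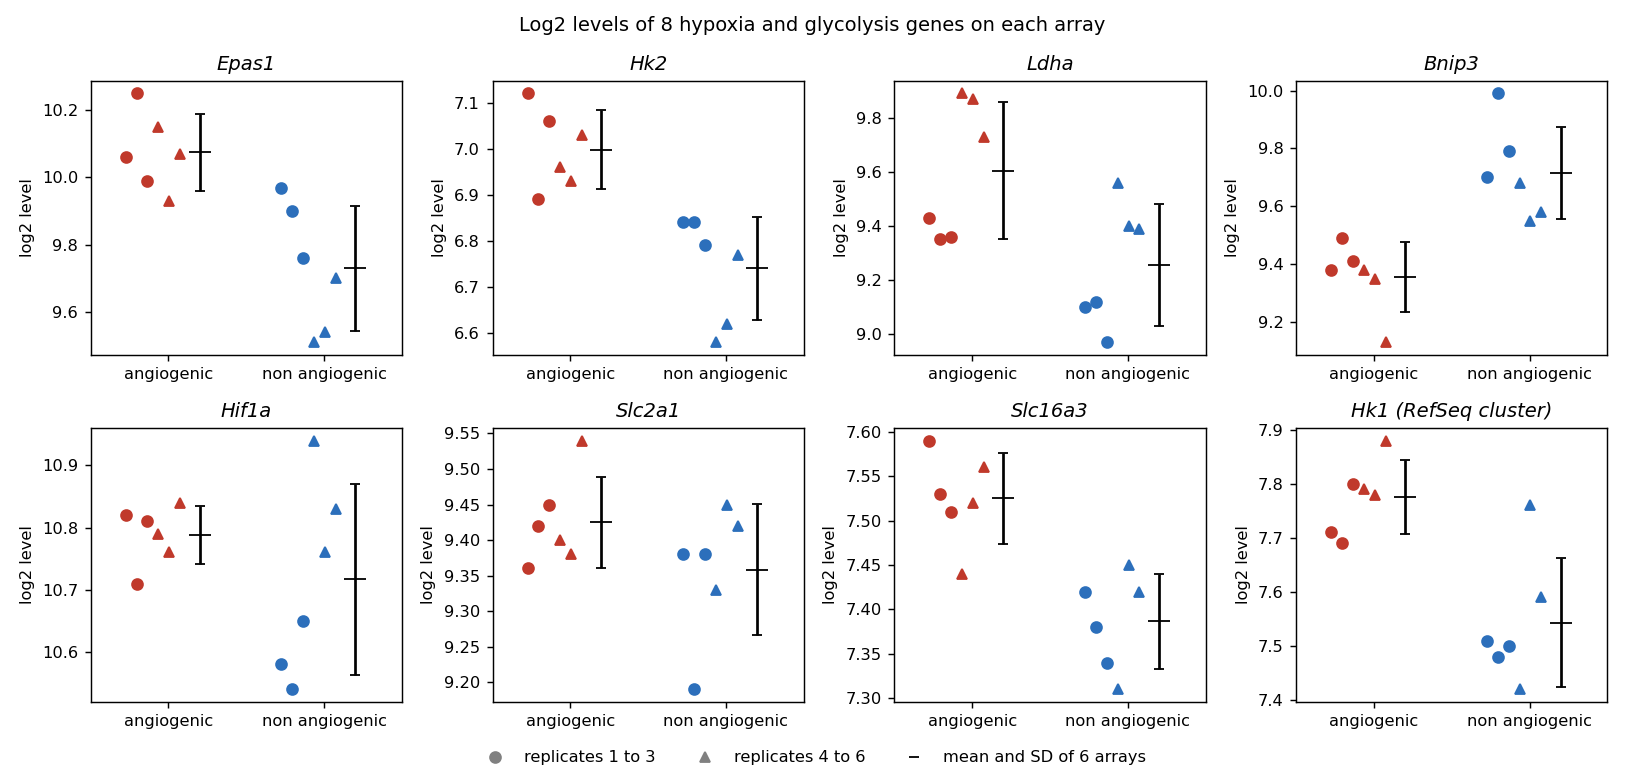
Log2 level (vertical axis) in each array of angiogenic (red, left) and non angiogenic islets (blue, right) for Epas1, Hk2, Ldha, Bnip3, Hif1a, Slc2a1, Slc16a3 and the RefSeq-annotated cluster of Hk1, with circles for replicates 1 to 3, triangles for replicates 4 to 6 and lines for the mean and SD of 6 arrays. Bnip3 and Hk2 separate the groups fully, whereas Ldha separates them within each set and overlaps across the sets.

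The glycolytic enzymes showed no common direction. Of 16 enzymes measured, 1 was higher, Hk2, and 0 were lower (3.55% and 0.948% of all genes). Of the 16 differences 9 were positive and 7 negative, and the median log2 difference was 0.015. Without adjustment, 2 enzymes were higher and 3 lower at p under 0.05 (7.76% and 6.59% of all genes). Hk2 encodes hexokinase 2, the inducible enzyme that traps glucose in the cell. Its log2 level ranged from 6.89 to 7.12 in angiogenic islets (median 6.99), against 6.58 to 6.84 in non angiogenic islets (median 6.78). Every angiogenic array lay above every non angiogenic array. The signal was weaker than that of most genes, with 35.8% of all genes dimmer. The mean was 7.00 ± 0.09 in angiogenic and 6.74 ± 0.11 in non angiogenic islets (SD, n = 6 each), 1.20-fold higher in angiogenic islets, with a log2 difference of 0.26 (SE 0.06) and adjusted p = 0.0217 from limma. The difference was 0.20 in replicates 1 to 3 (adjusted p = 0.226) and 0.31 in replicates 4 to 6 (adjusted p = 0.0373). The call was lost in 3 of 12 leave-one-out fits, those without angiogenic replicate 1 or 6 or non angiogenic replicate 5, with an adjusted p of up to 0.0546.

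Ldha, the gene of the subunit of lactate dehydrogenase that favours lactate, had log2 levels of 9.35 to 9.89 in angiogenic islets (median 9.58), against 8.97 to 9.56 in non angiogenic islets (median 9.26). The groups overlapped, and with a difference of 0.35 ± 0.12 (SE) and a 95% interval of 0.09 to 0.61 the test was not passed (adjusted p = 0.15 from limma). Within the sets they were apart. In replicates 1 to 3 the levels were 9.43, 9.35 and 9.36 in angiogenic islets, against 9.10, 9.12 and 8.97 in non angiogenic islets. In replicates 4 to 6 they were 9.89, 9.87 and 9.73 in angiogenic islets, against 9.56, 9.40 and 9.39 in non angiogenic islets. Every array of replicates 4 to 6 was thus above all arrays of its own group in replicates 1 to 3. The shift between the sets was 0.42, larger than the difference between the groups, and with the set as a term the standard error fell to 0.05 and the adjusted p to 0.000195. The difference was 0.32 in replicates 1 to 3 (adjusted p = 0.0417 from limma) and 0.38 in replicates 4 to 6 (adjusted p = 0.0205). Ldhb, the gene of the other subunit, differed by -0.06 (-0.23 to 0.12).

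Hk1, the constitutive hexokinase gene, gave opposite signs in its clusters. The brightest cluster averaged 11.98 ± 0.11 in angiogenic and 12.10 ± 0.04 in non angiogenic islets (SD, n = 6 each), a log2 difference of -0.12 (adjusted p = 0.275 from limma). Its annotation rests on 1 mRNA accession outside RefSeq, and 16 other clusters name Hk1 together with the ribosomal protein gene Rpl17. A dimmer cluster, annotated with the RefSeq transcripts of Hk1 and examined after the values were seen, ranged from 7.69 to 7.88 in angiogenic and from 7.42 to 7.76 in non angiogenic islets. Only non angiogenic replicate 5, at 7.76, reached into the angiogenic range. When this cluster stood for the gene, the difference was 0.23 ± 0.06 (SE), adjusted p = 0.0364 from limma, and it was 0.24 and 0.22 in the 2 array sets. This call was lost in 9 of 12 leave-one-out fits (adjusted p of up to 0.0959), kept without angiogenic replicates 1 and 2 and non angiogenic replicate 5, and the sign for Hk1 therefore depends on the cluster.

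Eno2 and Aldoa had the most negative differences among the glycolytic enzymes. Eno2, the neuronal enolase gene that is also a marker of endocrine cells, had log2 levels of 8.30 to 8.67 in angiogenic islets (median 8.61), against 8.55 to 9.06 in non angiogenic islets (median 8.74). The groups overlapped, with a difference of -0.21 and a 95% interval of -0.40 to -0.01 (adjusted p = 0.324 from limma). It was -0.05 in the first array set, replicates 1 to 3, and -0.36 in the second (adjusted p = 0.0252 from limma), where the groups did not overlap. Of 6 listed markers of endocrine cells other than beta cells, 4 were measured. Of these 0 were higher and 2 lower (3.55% and 0.948% of all genes). The mean log2 level of the 4 was 11.09 to 11.39 in angiogenic against 11.54 to 11.60 in non angiogenic islets. Their part in the values of Eno2 was not tested. Aldoa, the gene of the main aldolase, had log2 levels of 10.86 to 11.17 in angiogenic islets (median 10.98), against 11.02 to 11.28 in non angiogenic islets (median 11.16). The groups overlapped, with a difference of -0.17 (-0.31 to -0.03, adjusted p = 0.218 from limma).

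The other enzymes of the pathway had differences between -0.08 and 0.13, and none passed the test. The phosphofructokinase genes Pfkl, Pfkm and Pfkp, whose product is a control point of glycolysis, differed by 0.05, -0.08 and 0.01, and the genes Pfkfb3 and Pfkfb4, whose products set the level of its activator fructose 2,6-bisphosphate, by 0.09 and 0.02. Of the enzymes of the lower pathway, Pgk1 had the larger difference, 0.13 (-0.01 to 0.26), and Pgam1 and Tpi1 had 0.09 and 0.06. Pkm, the pyruvate kinase gene, differed by -0.01 with an interval of -0.11 to 0.08 in its brightest cluster and by 0.08 in its other cluster. The brain aldolase gene Aldoc differed by -0.07. Of the 3 clusters of Pgk1 and of Pgam1, 2 each gave the same values and are not separate measurements. For Pgk1 the equal clusters include the one used, and the remaining cluster also gave 0.13. For Pgam1 the cluster used (0.09) is not one of the equal clusters, which gave 0.06.

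Transporters and Pdk1 did not pass the test either (0 higher and 0 lower of 5, against 3.55% and 0.948% of all genes). The median log2 difference of the 5 was 0.065. Slc16a3, which encodes the lactate exporter MCT4, came nearest. Its log2 level ranged from 7.44 to 7.59 in angiogenic islets (median 7.52), against 7.31 to 7.45 in non angiogenic islets (median 7.40). The ranges overlapped at their ends only, with a difference of 0.14, a 95% interval of 0.04 to 0.23 and adjusted p = 0.104 from limma (0.0552 when array set was a term). In a fit across all genes without limma's moderation of the variances, Slc16a3 passed (adjusted p = 0.0329). Slc16a1, the gene of MCT1, ranged from 6.12 to 6.38 in angiogenic islets (median 6.23), against 5.87 to 6.20 in non angiogenic islets (median 6.17). These groups overlapped as well, with a difference of 0.14 and adjusted p = 0.364. The signal of Slc16a1 was weak, with 24.6% of all genes dimmer.

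Slc2a1, the glucose transporter gene induced by HIF, had log2 levels of 9.36 to 9.54 in angiogenic islets (median 9.41), against 9.19 to 9.45 in non angiogenic islets (median 9.38). The groups overlapped, with a difference of 0.07 and a 95% interval of -0.05 to 0.18 (adjusted p = 0.67 from limma). Slc2a3, the gene of a related transporter, differed by 0.05 (-0.11 to 0.20). Pdk1 encodes a pyruvate dehydrogenase kinase and is a textbook HIF target. It ranged from 7.73 to 8.01 in angiogenic islets (median 7.88), against 7.92 to 8.15 in non angiogenic islets (median 7.98), a difference of -0.12 (-0.25 to 0.01, adjusted p = 0.41).

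The group differences could be compared across the 2 sets of arrays. Of the 36 genes, 14 had positive and 18 negative differences in both sets, and 4 changed sign (11.1%), against 39.2% of all genes. Epas1, Hk2 and Ldha were higher, and Bnip3 and Bnip3l lower in their brightest clusters, with no overlap between the groups within either set. Over all genes this held for 4.89% (higher) and 2.42% (lower). In replicates 1 to 3 alone, Ldha passed the limma test as higher and Bnip3 as lower (2.37% and 0.331% of all genes). In replicates 4 to 6 alone, Epas1, Hk2 and Ldha were higher and Eno2 lower (3.11% and 0.737% of all genes). The interaction of group and set passed for 0 of the 36 genes and for 1 of all genes (0.00502%), so that no difference between the sets in the group effect was detected for these genes.

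**Figure D3:**
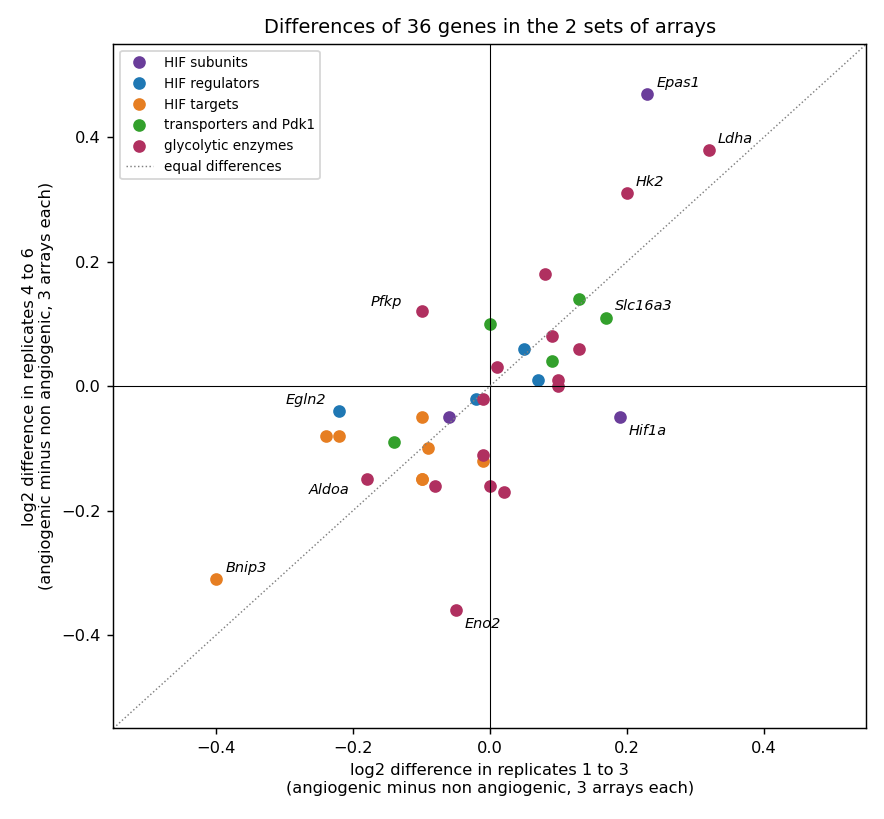
Log2 difference (angiogenic minus non angiogenic islets) of each of the 36 genes in replicates 1 to 3 (horizontal axis) and in replicates 4 to 6 (vertical axis), coloured by role. Epas1, Hk2 and Ldha lie in the upper right and Bnip3 in the lower left, and 4 genes lie in the quadrants of opposite sign.

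Of the 36 genes, 10 passed a limma test of the array set (adjusted p under 0.05), 6 being higher and 4 lower in replicates 4 to 6, against 36.9% of all genes in either direction. For 18 of the 36 the shift between the sets was larger than the difference between the groups, against 68.3% of all genes. Beside Egln2 and Ldha, Pgam1 was higher by 0.23, Eno2 by 0.21, Ddit4 by 0.19, Pfkm by 0.17 and Tpi1 by 0.16 in replicates 4 to 6. Car9 differed by -0.22, Ankrd37 by -0.18 and Bnip3 by -0.18. Acinar markers differed between the groups by 0.93 in the first array set and by -0.15 in the second. When the average level of 9 acinar markers entered the model, the calls of Epas1 (adjusted p = 0.00563 from limma), Hk2 (0.0236) and Bnip3 (0.013) were kept.

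Genes of the hypoxia response outside the set of 39 included Hmox1, with a larger difference than any of the 36. Of 28 further hypoxia genes measured, 3 were higher and 0 lower, with a median log2 difference of -0.015. The same calls were made for 3.55% (higher) and 0.948% (lower) of all genes. When array set was included as a term, 4 of the 28 were higher, Bhlhe40 being added (0.42, adjusted p = 0.00321 from limma). In that fit 1 was lower, Ppp1r3c (-0.22, adjusted p = 0.0332 from limma), against 5.88% (higher) and 2.74% (lower) of all genes. Hmox1, the gene of the stress-induced heme oxygenase 1, ranged from 9.07 to 10.12 in angiogenic islets (median 9.40), against 7.99 to 8.50 in non angiogenic islets (median 8.26). The groups did not overlap, and the gene was 2.40-fold higher in angiogenic islets, with a log2 difference of 1.26 (SE 0.18) and adjusted p = 0.000472 from limma. Plod2, whose enzyme modifies collagen lysines, was 1.36-fold higher (adjusted p = 0.00156), and Edn1, which encodes the vasoconstrictor endothelin 1, 1.24-fold (adjusted p = 0.0225). The signal of Edn1 was weak, with mean log2 levels of 6.53 in angiogenic and 6.22 in non angiogenic islets. The calls of Hmox1 and Plod2 were kept in all 12 leave-one-out fits, and that of Edn1 was lost in 5 of them (adjusted p of up to 0.0602), those without angiogenic replicate 1, 2 or 5 or non angiogenic replicate 3 or 5.

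Hmox1 is abundant in macrophages that degrade hemoglobin, Plod2 in fibroblasts and Edn1 in endothelium. The mean log2 level of the macrophage markers was 8.32 to 8.80 in angiogenic against 7.94 to 8.24 in non angiogenic islets, and that of the fibroblast markers 9.39 to 9.68 in angiogenic against 8.15 to 8.65 in non angiogenic islets. Their part in these differences was not tested. Vegfa, the HIF target that drives the growth of vessels, lay between 11.89 and 12.04 in angiogenic islets (median 11.97), against 12.02 to 12.13 in non angiogenic islets (median 12.03), a difference of -0.08 ± 0.04 (SE), with adjusted p = 0.413 from limma.

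Of 26 further genes of glycolysis and glucose use, 0 were higher and 1 was lower (3.55% and 0.948% of all genes). The median log2 difference of the 26 was -0.064. The lower gene was Pdk4, which encodes a pyruvate dehydrogenase kinase known from fasting. It ranged from 7.48 to 8.13 in angiogenic islets (median 7.86), against 8.00 to 8.64 in non angiogenic islets (median 8.40). The groups overlapped at their ends, with a difference of -0.50 ± 0.12 (SE) and adjusted p = 0.0301 from limma. The call was kept in 4 of 12 leave-one-out fits, those without angiogenic replicate 1 or 2 or non angiogenic replicate 4 or 5, and otherwise lost with an adjusted p of up to 0.0802. When array set was included as a term, 1 gene was higher, Pgm2, and 4 were lower, Pdk4, Pfkfb2, Pdk2 and Slc2a2. Over all genes 5.88% were higher and 2.74% lower in that fit. Slc2a2, the glucose transporter gene of beta cells, ranged from 10.94 to 11.28 in angiogenic islets (median 11.09), against 10.97 to 11.61 in non angiogenic islets (median 11.31), a difference of -0.23 ± 0.10 (SE), with adjusted p = 0.299 from limma (0.0407 when array set was a term). The mean level of 9 beta cell markers, of which Slc2a2 is one, was 11.71 to 11.87 in angiogenic against 11.76 to 12.03 in non angiogenic islets.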

How the data were processed

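The authors deposited log2 levels per transcript cluster of 12 Affymetrix arrays, 6 per group, made with RMA in Affymetrix Expression Console according to the submitters' processing notes. For tool versions, genome build and joint normalization of the arrays, the sources used here give nothing. RMA brings arrays to one distribution, so that a change in total RNA per islet cannot be seen, and weak signals are compressed. Arrays give no read depth, and the number of arrays limits the precision.

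Of 35556 clusters, 21789 carried 1 gene symbol, 1621 several and 12146 none, by the platform annotation. For 999 genes with several single-symbol clusters, 8 of the 36 among them, the cluster brightest on average was used, giving 19938 genes. RefSeq gene identifiers changed 0 of the symbols of the 36 genes. No pair of arrays was identical (highest correlation 0.9979).

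Groups were compared with lmFit and eBayes (limma 3.58.1, R 4.3.3) between the 6 arrays of each group, with no covariate, as two-sided tests whose p-values were adjusted by Benjamini-Hochberg over 19938 genes (threshold 0.05). The fit was tested on simulated data with independent spread in each array. These data held no array sets or technical repeats, so that the p-values were not checked against either. The genes and lists were chosen with earlier results of these data known. Levels on the arrays are given for genes past the threshold with or without the set term, for Hif1a, Slc2a1, Car9, Ldha and Pdk1, and for the 2 largest remaining differences of each sign. From the further lists, the largest called differences, Vegfa and Slc2a2 are given. Alternatives were an ordinary t-test (no moderation of the variances), an intensity trend, array weights, quantile normalization, median centring, leaving out dim genes, means of clusters, the set of arrays as a term or alone, acinar markers as a covariate, a replicate block and leaving out each array. The RefSeq cluster of Hk1 and single clusters as separate features were added after the data were seen.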

Additional observations from a re-analysis of the deposited data

Results flagged for a closer look

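For Egln3, a prolyl hydroxylase gene, non angiogenic replicate 3 had a log2 level of 7.67, apart from the other 5 non angiogenic arrays, which lay between 7.11 and 7.27. It was the only array apart from its group by this measure in 72 comparisons of 6 arrays each, where chance alone gives about 1 in 20. The angiogenic arrays of Egln3 lay between 7.22 and 7.47.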

How the results depend on the processing

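Of the 36 genes, 2 were higher in angiogenic islets, against 1 after quantile normalization, without dim genes (which leaves out Hk2) or in replicates 1 to 3 alone, and 1 was lower, against 0 with the mean of all clusters. Among glycolytic enzymes 1 was higher, against 0 without dim genes, 2 with the set of arrays as a term, 2 in replicates 4 to 6 alone and 2 with the RefSeq cluster of Hk1, and 0 were lower, against 1 in replicates 4 to 6 alone. Among HIF subunits, regulators and targets 1 was higher, against 0 without limma's moderation of the variances, after quantile normalization or in replicates 1 to 3 alone, and 1 was lower, against 0 with the mean of all clusters or replicates 4 to 6 alone. When each array was left out in turn, 0 to 2 genes were higher and 1 lower, with 0 to 1 higher among glycolytic enzymes and 0 to 1 among HIF genes. Signs turned for genes that had not passed the test, with log2 differences of 0.23 for Hk1 with its RefSeq cluster, 0.054 for Hk1 and 0.032 for Pkm with the mean of all clusters, -0.01 for Pfkp with median centring, -0.099 for Pfkp and 0.023 for Aldoc in replicates 1 to 3 alone, and -0.048 for Hif1a and -0.003 for Pfkl in replicates 4 to 6 alone. Without 1 array, differences ranged from -0.038 to 0.086 for Pfkp, from -0.009 to 0.039 for Pfkfb4 and from -0.026 to 0.002 for Pkm. The arrays share only replicate numbers. Deviations of equal numbers correlated with 0.03 to 0.54, and with -0.34 to 0.12 once the means of the array sets were removed, and 2 of 6 angiogenic arrays correlated best with their own number. With the replicate block 2 glycolytic enzymes were higher, as Ldha then passed (adjusted p = 0.000713 from limma). For single genes, 417 of the fits without 1 array kept direction and call, 8 lost the call and 7 changed sign. Of the other alternatives 440 kept both, 6 lost the call (Epas1, Bnip3 and Hk2), 6 gained it (Ldha, Slc16a3 and Eno2) and 8 changed sign. The number of arrays limits what can be detected, and causes of the changed calls were not tested.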
